A study of Mus musculus with 8 samples.

Results

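A set of 9 genes known for their response to blood flow in endothelium, or for joining vascular cells through gap junctions, were followed in the aorta of a mouse model of Marfan syndrome: Klk10, Klf2, Klf4, Thbd, Edn1, Angpt2, Gja1, Gja4 and Gja5. They are 9 of 30142 genes that a transcript cluster (the array's unit, a set of probes for 1 transcribed locus) with a single platform gene symbol represented. Each was the only symbol of exactly 1 cluster, so the rule of taking the brightest cluster per gene by its mean over all 8 arrays set no cluster aside. The genes were picked with earlier results of these data known, with the genotype difference in log2 signal among the values they were selected on, so their differences are given as a description and the p-values of the fit as a scale for them.

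The data are 8 Affymetrix Clariom D mouse arrays of ascending aorta, taken from males at an age of 10 weeks. Mutant samples (4; mgR611 to mgR614) had the genotype Fbn1mgR/mgR, that is, 2 copies of the mgR allele of the fibrillin-1 gene, and control samples (4; WT675, WT676, WT742 and WT744) were wild-type. Both came from heterozygous parents on a C57BL/6J background, and the labels name no treatment. The mgR allele is a germline change that lowers fibrillin-1 production in all cells, and homozygotes develop aortic aneurysm; the Fbn1 transcript itself was not analysed here. Whether each sample was a different animal is not stated, and the p-values reflect the spread among the arrays alone, part of which may be technical.

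Endothelial cells sense the drag of flowing blood. Steady flow raises the transcription factors Klf2 and Klf4 through the ERK5 kinase and MEF2 factors, and these raise anticoagulant and vessel-relaxing genes such as Thbd and Nos3 and lower the vasoconstrictor Edn1, while disturbed flow does the reverse and favours Angpt2 and adhesion molecules. Gap junctions, built from connexins, let neighbouring endothelial and smooth muscle cells exchange ions and small molecules. In arteries the connexins Gja4 and Gja5 are typical of endothelium, and Gja1 is also made by smooth muscle.

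Deposited values were log2 signals from the authors, with array medians of 3.95 to 4.07 and a highest value of 19.93. How they were normalized was not stated, and the p-values assume that values are comparable between arrays. The number of arrays limits the precision. Differences are given as Fbn1mgR/mgR minus wild-type on this log2 scale from a limma fit over the whole table, with Benjamini-Hochberg adjustment over the 32957 clusters tested and a threshold of 0.05. The upper range of 1080 olfactory receptor genes (95th percentile 4.12) served as a reference for dim signals, and the mean of every gene of the 9 lay above it, Gja1 (4.83) and Gja4 (5.08) by less than 1 log2 unit. As checks of the tissue, none of 8 smooth muscle and none of 11 endothelial markers lay at or below that reference. Of other lists, none of 7 mesothelial, 1 of 7 brown fat and 5 of 8 squamous epithelial markers did. The check therefore does not tell aorta from adjacent tissue.

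Of the 9 genes, 1 fell and none rose in the mutant aorta. Among all tested clusters 0.558% were called lower and 1.54% higher, 2.1% in all. The gene that fell was Klk10; the remaining 8 did not pass, with Gja5, Klf2, Klf4, Gja4 and Gja1 at negative and Thbd, Angpt2 and Edn1 at positive differences. Before adjustment (an unadjusted p under 0.05, here and in the lists), 3 genes were lower (Klk10, Gja5 and Klf2) and 1 was higher (Angpt2), a level that 6.72% and 7.45% of all clusters reached in those directions. The 2 genotypes did not overlap for 2 genes: Klk10, where the mutant lay below, and Angpt2, where it lay above; of all tested clusters 3.65% lay wholly below, 5.26% wholly above and 8.92% either way. The median difference of the 9 was -0.22, against -0.02 over all tested clusters. Because the RNA came from whole vessel wall, fewer cells of a type and less RNA per cell cannot be told apart.

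**Figure D1:**
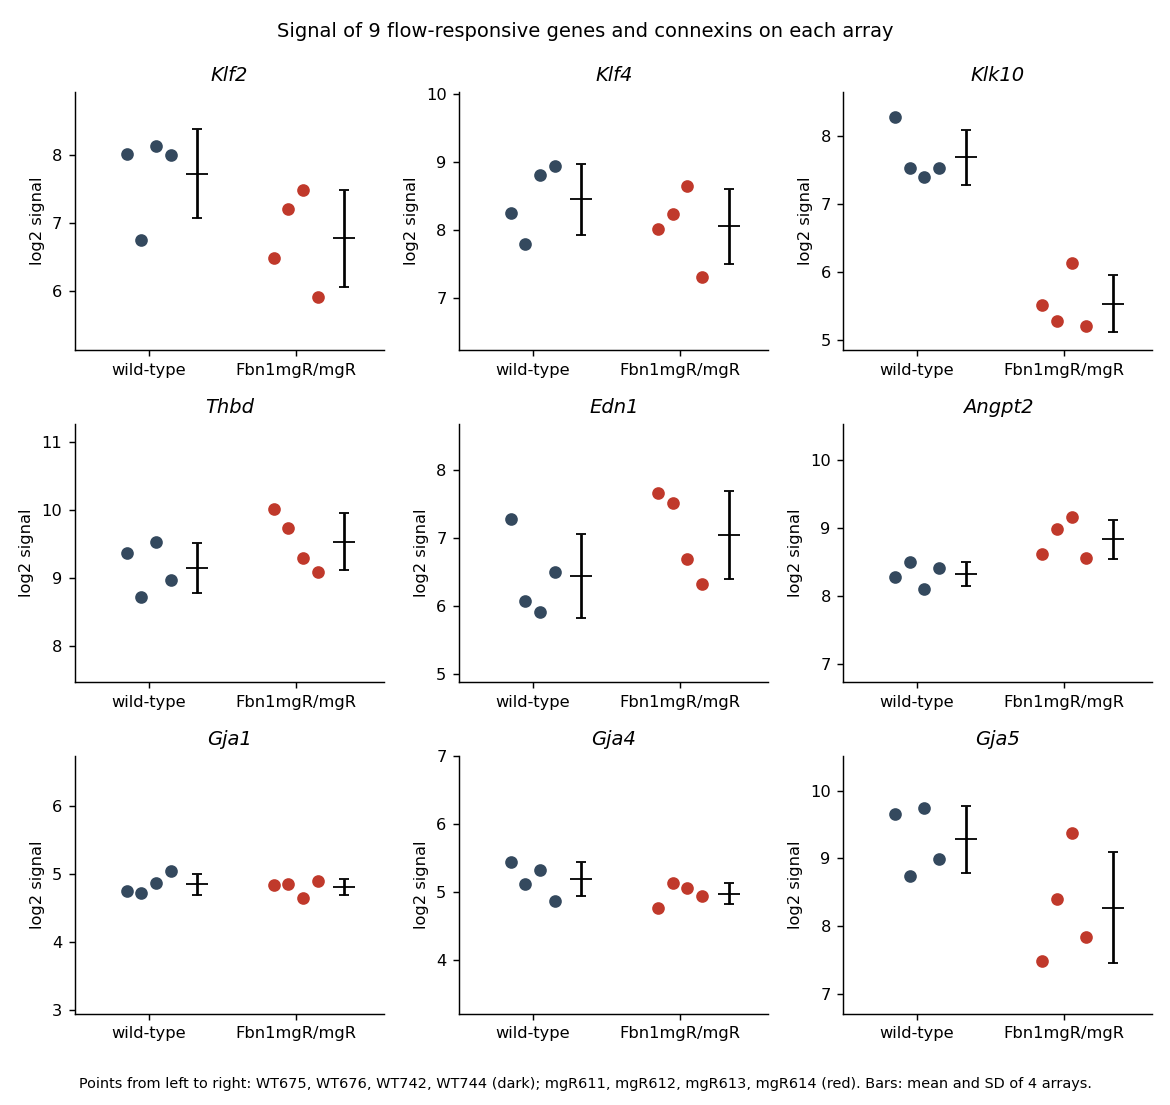
Log2 signal (vertical axes, each spanning the same number of log2 units) of the 9 genes on each wild-type (dark) and Fbn1mgR/mgR (red) array, with the mean and SD of the 4 arrays of a group beside the points. Klk10 separates the genotypes by more than the spread of either, Angpt2 separates them narrowly, and the other 7 overlap.

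Klk10 encodes a secreted kallikrein-related peptidase that arterial endothelium makes under steady flow. Its signal was 8.29, 7.54, 7.40 and 7.54 in WT675, WT676, WT742 and WT744. In mgR611, mgR612, mgR613 and mgR614 it was 5.52, 5.28, 6.14 and 5.21. Every mutant array therefore lay more than 1 log2 unit below every wild-type array, with mgR613 the highest mutant and WT675 the highest wild-type. The means were 5.54 ± 0.423 and 7.69 ± 0.404 (SD, n = 4 each), and the difference was -2.16 (SE 0.252, 95% interval -2.72 to -1.59), a 4.45-fold lower signal (limma adjusted p = 0.00352). This call held in all 21 refits, with adjusted p between 0.00203 and 0.0373 and a difference between -2.36 and -1.84.

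The sequences before the start of Klk10, Klf2 and Gja5, the 3 genes with the most negative differences, are shown to set the data beside the promoters that flow-responsive factors could read. They are the 250 bases upstream of the annotated start, 5′ to 3′ on the gene's strand, from RefSeq (GRCm38.p6). Capitals mark CACCC, the core letters bound by Kruppel-like factors, on either strand (GGGTG on the other), and matches to the MEF2 consensus.
Klk10, chr7:43780804-43781053, plus strand: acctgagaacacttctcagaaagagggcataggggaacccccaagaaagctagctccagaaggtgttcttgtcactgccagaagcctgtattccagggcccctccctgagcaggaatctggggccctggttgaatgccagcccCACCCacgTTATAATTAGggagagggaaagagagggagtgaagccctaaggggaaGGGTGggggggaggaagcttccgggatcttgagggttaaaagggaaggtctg
Klf2, chr8:72318812-72319061, plus strand: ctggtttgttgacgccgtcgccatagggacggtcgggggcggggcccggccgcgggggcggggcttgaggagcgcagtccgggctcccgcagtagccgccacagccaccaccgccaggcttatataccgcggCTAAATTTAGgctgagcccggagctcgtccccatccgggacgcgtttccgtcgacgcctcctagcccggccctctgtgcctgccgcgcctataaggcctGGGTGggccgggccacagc
Gja5, chr3:97032152-97032401, plus strand: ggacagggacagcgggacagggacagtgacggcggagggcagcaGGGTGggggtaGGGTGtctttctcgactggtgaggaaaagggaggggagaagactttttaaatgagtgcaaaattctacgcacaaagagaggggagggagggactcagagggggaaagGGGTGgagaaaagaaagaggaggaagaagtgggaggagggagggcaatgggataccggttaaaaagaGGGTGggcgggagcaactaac

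The Klk10 sequence held CACCC at 2 places, 107 to 103 and 52 to 48 bases before the start, and the MEF2 match TTATAATTAG at 99 to 90 bases. The Klf2 sequence held 1 CACCC, 19 to 15 bases before the start, and the MEF2 match CTAAATTTAG at 118 to 109 bases. Gja5 held 4, all on the opposite strand. Of 32851 promoter windows of this length, 52.0% held CACCC and 2.92% a MEF2 match, so the first is common and the second is not. Edn1 held CACCC at 2 places and the shear stress response element GAGACC at 1, on the opposite strand, letters found in 13.7% of windows. Windows of Klf4, Gja1 and Gja4 held none of the 3 motifs. The promoter table matched 7 of the 9 genes, all except Thbd and Angpt2. The MEF2 consensus was added after the sequences had been seen, and a match describes letters, not binding.

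Klf2, a transcription factor that steady flow induces, had signals of 8.02, 6.75, 8.14 and 8.01 in WT675, WT676, WT742 and WT744 and 6.49, 7.21, 7.49 and 5.92 in mgR611, mgR612, mgR613 and mgR614. WT676 lay far below the other wild-type arrays and inside the mutant range, so the groups overlapped, although all 4 mutant arrays were below the wild-type mean. The means were 6.78 ± 0.710 against 7.73 ± 0.656 (SD, n = 4 each). The difference of -0.95 (SE 0.398, 95% interval -1.85 to -0.06) did not pass (limma adjusted p = 0.315).

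Klf4, its close relative in endothelium and also a factor of smooth muscle and macrophages, ran from 7.79 to 8.94 in wild-type and from 7.31 to 8.64 in mutant arrays, which overlapped between 7.79 and 8.64, with WT742 and WT744 above every mutant array and mgR614 below every wild-type array. The arrays at the low end were WT676 (7.79) and mgR614 (7.31), which were also the lowest of their genotype for Klf2. The difference was -0.40 (SE 0.324, 95% interval -1.13 to 0.33, limma adjusted p = 0.671), and it was -0.15 without mgR614, -0.23 without WT744 and -0.62 without WT676. An interval this wide leaves the size of any Klf4 difference unsettled between a 2.18-fold lower and a 1.26-fold higher level.

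Thbd encodes thrombomodulin, the endothelial receptor that turns thrombin into an activator of protein C. Its signal was 9.38, 8.73, 9.54 and 8.97 in the wild-type arrays in the order above and 10.02, 9.74, 9.30 and 9.10 in the mutant arrays. The highest values came from mgR611 and mgR612, and the groups overlapped. The difference was 0.39 (SE 0.248, 95% interval -0.17 to 0.94, limma adjusted p = 0.560), and 0.23 without mgR611 or 0.24 without WT676. Thbd thus lay on the opposite side of 0 from Klf2, a factor known to raise it, with neither past the threshold.

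Edn1 encodes endothelin-1, the vasoconstrictor peptide. Wild-type signals were 7.29 in WT675 and 5.91 to 6.51 in the other arrays. Mutant signals were 7.66 and 7.52 in mgR611 and mgR612 and 6.69 and 6.33 in mgR613 and mgR614. The highest signals were thus those of mgR611 and mgR612 and the lowest those of WT742 (5.91) and WT676 (6.08). The genotypes overlapped between 6.33 and 7.29. The difference was 0.60 (SE 0.368, 95% interval -0.22 to 1.43, limma adjusted p = 0.532), and 0.40 without mgR611.

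Angpt2, the angiopoietin that endothelium releases to destabilise vessels, had a narrow spread, with 8.28, 8.51, 8.11 and 8.42 in wild-type and 8.63, 8.99, 9.17 and 8.57 in mutant arrays. The genotypes did not overlap, but the lowest mutant array (mgR614) and the highest wild-type array (WT676) were close together. The difference was 0.51 (SE 0.172, 95% interval 0.12 to 0.90), a 1.42-fold higher signal that did not pass over all clusters (limma adjusted p = 0.207). Its adjusted p was 0.131 to 0.395 over the other fits.

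Gja5, a connexin of arterial endothelium, varied most of the 9 within the mutant group. It was 9.65, 8.74, 9.74 and 8.99 in the wild-type arrays and 7.49, 8.40, 9.37 and 7.84 in mgR611, mgR612, mgR613 and mgR614. In mgR613 it was above WT676 and WT744, while mgR611, mgR612 and mgR614 were below every wild-type array. The means were 8.28 ± 0.821 and 9.28 ± 0.491 (SD, n = 4 each), and the difference of -1.01 (SE 0.396, 95% interval -1.89 to -0.12) did not pass (limma adjusted p = 0.284). Leaving out 1 array at a time gave -1.37 (without mgR613, limma adjusted p = 0.0898) to -0.74 (without mgR611, limma adjusted p = 0.446).

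Gja4, the other endothelial connexin, ranged from 4.77 to 5.13 in mutant and from 4.87 to 5.45 in wild-type arrays, with a difference of -0.22 (SE 0.144, 95% interval -0.54 to 0.11, limma adjusted p = 0.575), and -0.13 without WT675 or -0.04 with the endothelial marker mean in the model. Gja1, the connexin shared with smooth muscle, ranged from 4.65 to 4.90 in mutant and from 4.72 to 5.05 in wild-type arrays, with a difference of -0.04 (SE 0.107, 95% interval -0.28 to 0.20, limma adjusted p = 0.930). Both overlapped between genotypes. The Gja1 interval runs from 1.21-fold lower to 1.15-fold higher. The means of Gja1 and Gja4 lay 0.71 and 0.96 log2 units above the dim reference. How far such low signals narrow these intervals was not tested.

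**Figure D2:**
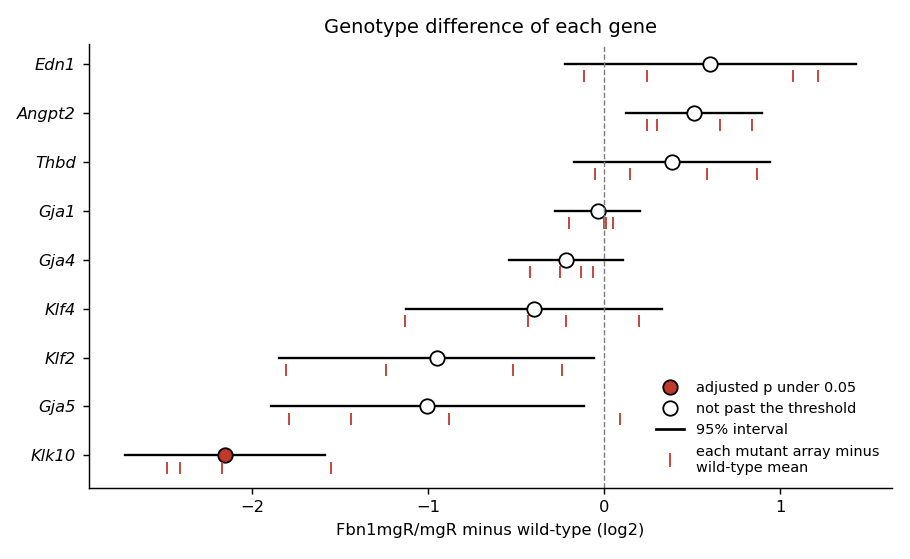
Difference of each gene between Fbn1mgR/mgR and wild-type arrays (horizontal axis, log2), with its 95% interval from the limma fit and, as red ticks, each mutant array minus the wild-type mean. Klk10, at -2.16, is the gene past the threshold; Gja5, Klf2 and Angpt2 have intervals that exclude 0 without passing after adjustment.

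Some arrays were often at one end of their genotype. In the mutant group mgR613 was the highest array for 5 of the 9 genes (Klk10, Klf2, Klf4, Angpt2 and Gja5) and mgR614 the lowest for 6 (Klk10, Klf2, Klf4, Thbd, Edn1 and Angpt2). In the wild-type group WT676 was the lowest for 5 (Klf2, Klf4, Thbd, Gja1 and Gja5). Other genes ran against this: Gja1 was lowest in mgR613 and highest in mgR614, Angpt2 was highest in WT676, and WT742 was the highest for 3 genes and the lowest for 3. Both arrays that were most often lowest had the highest mean of 7 brown fat markers in their genotype, which was 9.34 in mgR614 against 6.37 to 6.43 in the other mutant arrays and 9.65 in WT676 against 5.57 to 7.32 in the other wild-type arrays. With both left out, Klk10 was at -2.10 (limma adjusted p = 0.0373) and Klf2 at -0.99 (SE 0.257, limma adjusted p = 0.186). With that mean of brown fat markers in the model, Klf2 was at -0.97 (SE 0.227, limma adjusted p = 0.0773).

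Of 11 endothelial markers measured, 1 fell, Erg, an endothelial transcription factor (-1.20, limma adjusted p = 0.0447), and none rose; before adjustment, 4 were lower and none higher, with a median of -0.49. Their mean was 8.82, 9.50, 9.86 and 8.77 in mgR611, mgR612, mgR613 and mgR614, the arrays in which Gja5 and Klf2 were lowest being those with the lowest marker means. In WT675, WT676, WT742 and WT744 it was 10.1, 9.83, 9.73 and 9.28. There the match fails, since Gja5 and Klf2 were lowest in WT676 and the marker mean was lowest in WT744. With this mean as a covariate, Gja5 was at -0.40 (SE 0.314, limma adjusted p = 0.682), Klf2 at -0.55 (SE 0.433, limma adjusted p = 0.678) and Klk10 at -1.84 (SE 0.246, limma adjusted p = 0.0174). The differences of Gja5, Klf2 and Klk10 thus all came closer to 0, and that of Klk10 stayed past the threshold. The covariate had a mean of 9.24 in mutant and 9.74 in wild-type arrays. What part of any of these differences, that of Klk10 included, goes with the number of endothelial cells was not tested.

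Klf2 and Klf4 also belong to the genes that tissue handling and stress can induce within minutes. None of 15 immediate-early genes tested passed (limma; 1 higher and none lower before adjustment), with a median of 0.01. Over 18 measured genes the mean was 6.08, 5.94, 6.998 and 7.47 in WT675, WT676, WT742 and WT744, the same order as Klf4 (8.25, 7.79, 8.80 and 8.94). Among mutant arrays mgR614 was lowest and mgR613 highest in both. Klf2 shared these mutant extremes but not the wild-type order, being 8.02 in WT675 and 8.01 in WT744. With the immediate-early mean as a covariate the Klf4 difference was -0.37 (SE 0.192, limma adjusted p = 0.427). That of Klf2 was -0.93 (SE 0.330, limma adjusted p = 0.234) and that of Klk10 was -2.16 (limma adjusted p = 0.00678).

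**Figure D3:**
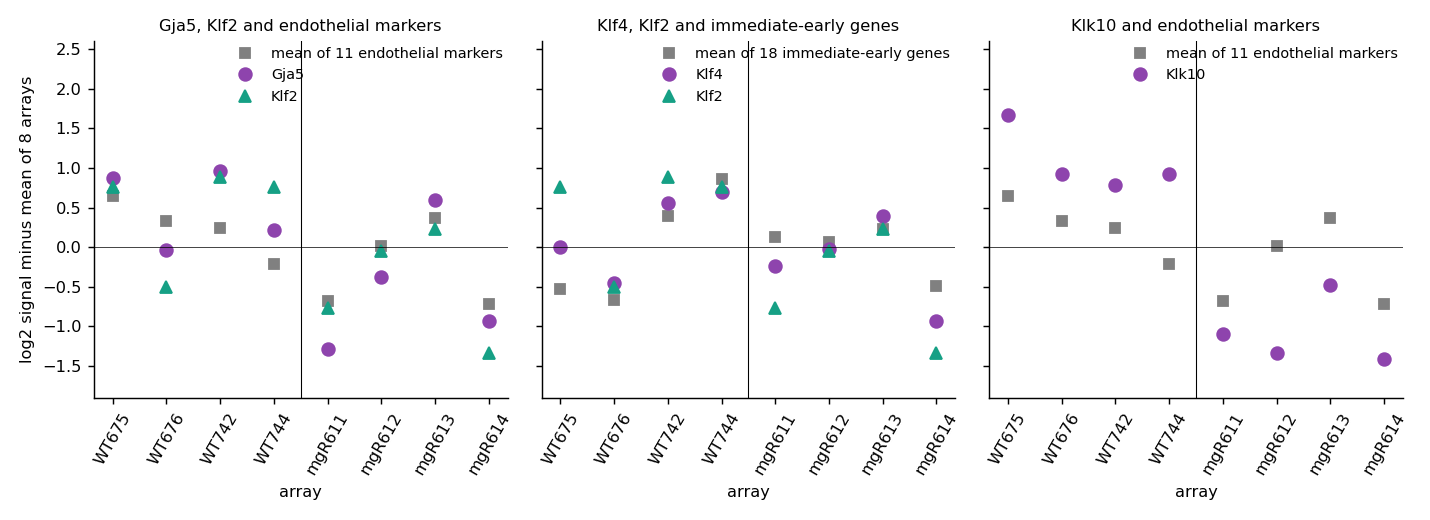
Signal on each array minus the mean of the 8 arrays (vertical axes, log2) for Gja5, Klf2, Klf4 and Klk10 (coloured) beside the mean of 11 endothelial markers or 18 immediate-early genes (grey squares). Gja5 and Klf2 sit low in mgR611 and mgR614 where endothelial markers are low, Klf4 orders the wild-type arrays as the immediate-early mean does, and Klk10 is below its own mean in all 4 mutant arrays.

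Markers of other cells differed as well. All 10 macrophage markers rose, with array means of 9.24 to 10.1 in mutant and 7.34 to 7.70 in wild-type aorta. Monocytes and macrophages also express Thbd, Klf2 and Klf4, and the part of these cells in the values was not tested. Of 6 fibroblast markers, 1 rose, Col1a1 (0.98, limma adjusted p = 0.00837), and none fell. None of 8 smooth muscle, 7 mesothelial or 5 cardiac markers tested passed in limma, with medians of -0.41, -0.61 and -0.13. Before adjustment, 2 smooth muscle, 2 mesothelial and 0 cardiac markers were lower, and none were higher. Of 7 lymphocyte markers none passed in limma, with 4 higher and none lower before adjustment. Of 8 squamous epithelial markers, tissue in which kallikreins are abundant, 5 lay at or below the dim reference and none of the 4 tested passed (limma; 1 was lower before adjustment). Their array means were 3.96 to 4.10 in mutant and 4.09 to 4.20 in wild-type arrays. The marker lower before adjustment was Krt14, whose mean over all arrays (5.96) lay above the reference (difference -0.665, limma adjusted p = 0.283).

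Partners and relatives of the 9 genes were read from 12 lists chosen with earlier results known. Kallikrein relatives were dim, with 9 of 12 at or below the reference and 4 tested. Klk11, which lies next to Klk10 in the RefSeq gene order, was 4.73 ± 0.246 in wild-type and 3.98 ± 0.0873 in mutant arrays (SD, n = 4 each) and was called lower (limma adjusted p = 0.0185). Its mutant mean lay below both the filter (4.01) and the dim reference, so it was tested only because of its wild-type signal and the size of its difference is not a measured level. Klk11 missed the threshold without mgR613, mgR614 or WT744, at adjusted p = 0.0594, 0.0552 and 0.0554 by limma (0.0128 to 0.0855 over all fits). Klk8, a few genes away in the same cluster, had signals of 9.78, 8.69, 9.73 and 8.49 in wild-type and 7.11, 7.93, 9.08 and 7.39 in mutant arrays, a difference of -1.30 that did not pass (limma adjusted p = 0.222). Klk1 (-1.18, limma adjusted p = 0.294), which was also dim in the mutant (3.73), and Klk15 (0.02) did not pass either, and Klk9, on the other side of Klk10, was below the filter at a mean of 3.45.

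Among 9 endothelial flow response genes tested, 1 rose, none fell and the median was -0.38. The gene that rose was Cyp1b1, a cytochrome P450 that flow induces (0.84, SE 0.150, limma adjusted p = 0.0234), which missed the threshold without any 1 of mgR611, mgR612, mgR614, WT676, WT742 and WT744, at adjusted p from 0.0506 to 0.0830 by limma. Nos3, the endothelial nitric oxide synthase, was 8.62, 8.13, 8.41 and 7.76 in wild-type and 6.79, 7.16, 7.88 and 6.92 in mutant arrays, with overlap at mgR613 and WT744. Its difference of -1.04 (SE 0.265) did not pass (limma adjusted p = 0.0922) but did without mgR613 (-1.27, limma adjusted p = 0.0352). Over all fits it ran from -1.27 to -0.60, the latter with the endothelial marker mean in the model, with adjusted p up to 0.310. The heme oxygenase Hmox1 (0.40) and the water channel Aqp1 (-0.69) did not pass, with adjusted p of 0.196 and 0.363 by limma.

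None of 7 genes raised by disturbed flow passed (limma; 3 higher and none lower before adjustment), and their median was 0.61. The adhesion molecules Icam1 and Sele (E-selectin) had differences of 0.67 (limma adjusted p = 0.103) and 1.20 (limma adjusted p = 0.106), and Ankrd1 one of 1.75 (limma adjusted p = 0.325). Icam1 did not overlap between genotypes. The wild-type mean of Sele (4.58) was near the dim reference (4.12), which limits its difference. In this list 6 differences were positive and 1 was negative. Flow sensors and junction receptors (10 tested, none past the threshold in limma, none higher and 2 lower before adjustment, median -0.22) included the adhesion receptor Pecam1 (-0.91, limma adjusted p = 0.175), which passed without mgR613 (-1.18, limma adjusted p = 0.0442) and ranged to -0.42 and an adjusted p of 0.387 in other fits, and the VEGF receptor Kdr (-0.79, limma adjusted p = 0.337). The ERK5 and MEF2 genes upstream of Klf2 lay close to 0, with a median of -0.05 over 7 genes, a range of -0.31 (Mef2a) to 0.12, and none before adjustment.

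Of 13 other Kruppel-like factors tested none passed (limma; 5 lower and none higher before adjustment), with a median of -0.20 and 11 of 13 at negative differences. Klf12 (-0.76, limma adjusted p = 0.139), Klf9 (-0.64, limma adjusted p = 0.178) and Klf15 (-0.33, limma adjusted p = 0.241) had the smallest p, and in all 3 the mutant arrays lay below every wild-type array. Klf9 and Klf15 are known targets of the glucocorticoid receptor.

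The endothelin system showed its largest difference in a receptor. Ednrb, the endothelin B receptor, had a difference of 1.66 (SE 0.407, limma adjusted p = 0.0798) among 4 tested partners of Edn1, with 9.13 ± 0.830 in mutant and 7.47 ± 0.530 in wild-type arrays (SD, n = 4 each), and passed without mgR611 (1.97, limma adjusted p = 0.0383). Its adjusted p was as high as 0.203 in other fits. The converting enzymes Ece1 (0.17) and Ece2 (0.04) did not pass, with adjusted p of 0.729 and 0.919 by limma. Of 8 angiopoietin and TIE partners, 1 rose, Svep1, a secreted matrix protein that binds the TIE1 receptor (1.77, SE 0.264, limma adjusted p = 0.00992), and none fell. The Svep1 call was lost with the endothelial marker mean in the model (limma adjusted p = 0.0557) and without mgR614 and WT676 together (limma adjusted p = 0.0832). The receptor Tek, which Angpt2 blocks, had a difference of -0.95 (limma adjusted p = 0.313), Angpt4 of 0.37 (limma adjusted p = 0.275) and Foxo1, which drives Angpt2, of -0.57 (limma adjusted p = 0.273).

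None of 8 partners of thrombomodulin passed (limma; 2 higher and none lower before adjustment; median 0.06). Protein S, Pros1, was at 0.41 (limma adjusted p = 0.206), tissue plasminogen activator, Plat, at 0.84 (limma adjusted p = 0.213) and the thrombin receptor F2r at 0.33 (limma adjusted p = 0.436). Plat passed with the endothelial mean as a covariate (1.31, limma adjusted p = 0.0305) and had an adjusted p of up to 0.411 in other fits.

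Of 15 other connexins and pannexins measured, 11 lay at or below the dim reference and 4 were tested, with none past the threshold (limma; 2 higher and 2 lower before adjustment). The pannexin channel gene Panx1 had a difference of 0.39 (limma adjusted p = 0.111) with no overlap between genotypes, Gja6 of -0.54 (limma adjusted p = 0.208) and Gjb5 of 0.47 (limma adjusted p = 0.300). Gap junction partners (6 tested, none past the threshold in limma, 1 higher and 3 lower before adjustment, median -0.18) included N-cadherin, Cdh2 (0.51, limma adjusted p = 0.215), caveolin-1, Cav1 (-0.41, limma adjusted p = 0.237), and the ubiquitin ligase Nedd4 (-0.33, limma adjusted p = 0.278).

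**Figure D4:**
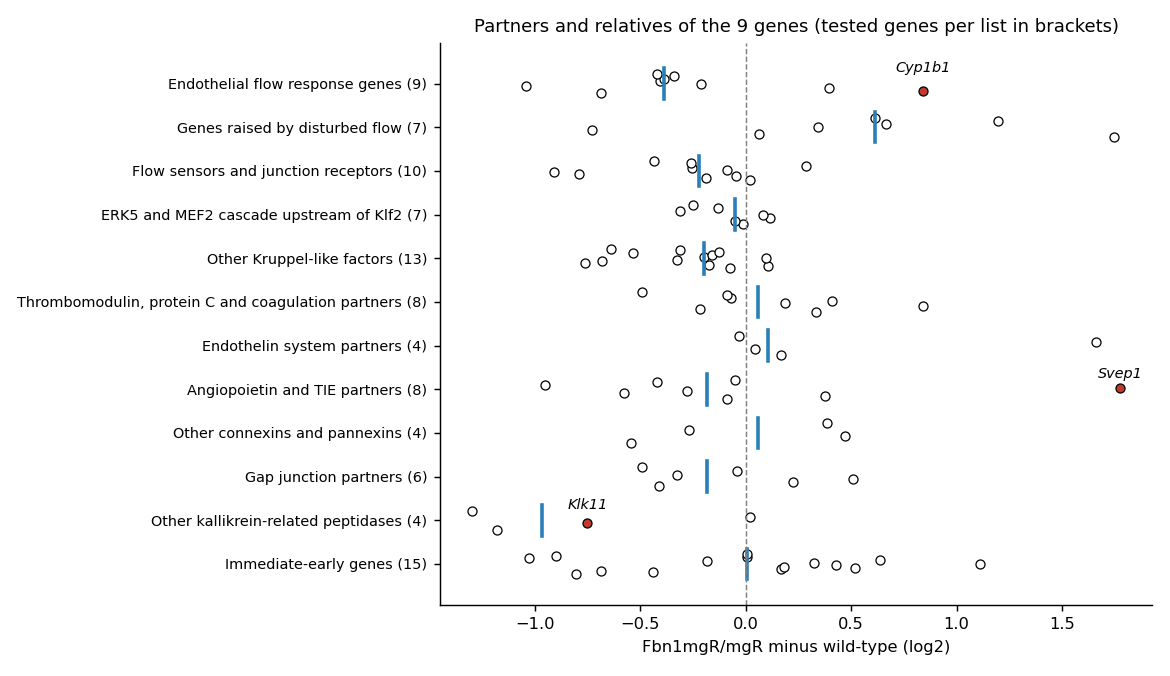
Differences between Fbn1mgR/mgR and wild-type arrays (horizontal axis, log2) of the tested genes of 12 lists around the 9 genes, 1 point per gene, with the median of each list as a blue bar and genes past the threshold in red. Cyp1b1, Svep1 and Klk11 are past the threshold. The kallikrein median (-0.96) rests on 4 genes, of which Klk1 and Klk11 passed the filter through wild-type alone, and is -0.0038 with no filter.

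The genes with the most similar profiles were found by the root mean square difference over the 8 arrays, each gene centred on its own mean, among 17867 genes with 1 symbol. For Klk10 they were Angptl7 (0.364), Tef (0.370) and Bmpr1b (0.376), with genotype differences of -2.02, -1.61 and -1.93. Centring was over both genotypes, so the measure includes the genotype difference, and genes near Klk10 share it by construction. For Gja5 they were Klk8 (0.227), Cmip (0.276) and Nos3 (0.290). For Klf2 they were Cemip2 (0.264), Rbm24 (0.270) and Aspn (0.296), and for Klf4 Stk17b (0.214), Tsc22d3 (0.217) and Slc38a2 (0.238). Within the 9, Klf2 and Klf4 were nearest to each other (0.381), Gja5 was nearest to Klf2 (0.387), and the nearest to Klk10 was Gja5 at 0.743. Klk10 thus stood farther from its nearest companion than any other of the 9, by a measure that grows with a gene's own spread. That spread includes the genotype difference. The nearest genes to Thbd, Edn1, Angpt2, Gja1 and Gja4 were Rsad2 (0.149), Klhl6 (0.336), Arf5 (0.0919), 2210420H20Rik (0.0466) and Corin (0.0762).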

How the data were processed

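Total RNA of 8 aorta samples was labelled with biotin and hybridised to Clariom D arrays, per the labels. The values are log2 signals of transcript clusters, deposited by the authors. Their software was the Transcriptome Analysis Console, per the submitters' processing notes; its version and the normalization were not given in the sources used here. No batch, litter or scan label was given. Of 65956 clusters, 30604 carried 1 platform symbol, 2146 several and 33206 none; 827 symbols were updated through gene IDs (RefSeq, GRCm38.p6). All clusters entered a linear model (limma 3.58.1, R 4.3.3; eBayes with trend), and p-values were adjusted over the 32957 with a mean above the median of means (4.01). Python 3.11.15, pandas 2.3.3 and matplotlib 3.10.9 did the rest. The 9 genes and all lists were chosen with earlier results of these data known. Named were the 9 genes and their 3 nearest profiles each. Per pathway list, up to 6 members past the threshold and 3 others with the smallest p were named. Klk9 (for its position) was named after its value was seen. So were Erg, Lyve1 and Col1a1 (past the threshold in marker lists), and Reln and Krt14 (for their signal levels). For this comparison (65956 simulated clusters, 32978 tested) the method was tested on simulated data. Calls were made for 59% of 100 true shifts of 1 and 76% of 100 true shifts of 2 (log2). None of these calls had the wrong sign, and 5.59% of calls were false. Simulated clusters varied independently, with normal noise, and shifts were planted only above the median signal. Patterns that many clusters share on an array were not simulated, so the false share in the real data may differ. Alternatives were other variance priors, array weights, filters, normalizations, thresholds, marker covariates and each array left out.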

Additional observations from a re-analysis of the deposited data

Results flagged for a closer look

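In 96 groups of 4 arrays (the 9 genes and the named partners), 2 had an array far from the other 3 by Dixon's ratio at its 95% critical value, where about 1 group in 20 is expected by chance. The Klk10 signal of WT675, 8.29, stood above the other wild-type arrays at 7.40 to 7.54. Without WT675 the Klk10 difference was -1.96 (limma adjusted p = 0.00857). The Klf2 signal of WT676, 6.75, stood below the other wild-type arrays at 8.01 to 8.14, and without WT676 the Klf2 difference was -1.28 (limma adjusted p = 0.145).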

How the results depend on the processing

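Over 21 other fits and 2 other thresholds (0.01 and 0.1), the count of the 9 genes called lower was 1 and called higher 0. Of 187 values of the 9 genes, 185 kept their direction and side of the threshold; the exceptions were Gja1 without mgR613 (0.0175) or WT744 (0.0283), within -0.0817 to 0.0283 over the arrays left out. Clusters called higher numbered 507 and clusters called lower 184; leaving out each array gave 272 to 521 and 67 to 146, the endothelial covariate 305 and 75, no filter 99 lower, and leaving out both arrays highest in brown fat markers 172 and 77 (6 arrays). The causes were not tested. Leaving out that pair and fitting the variance prior on tested clusters only were chosen after seeing the data. The sign turned for Trpv4 (-0.43 to 0.0092) and Klk15 (0.02 to -0.0335) with the endothelial covariate. It also turned over the arrays left out for Ece2 (-0.0250 to 0.0950) and Klk15 (-0.0442 to 0.0708). With that covariate Cyp1b1, Svep1 and Klk11 had adjusted p of 0.0829, 0.0557 and 0.0855 (limma), and without both brown fat arrays Cyp1b1 and Svep1 had 0.119 and 0.0832. The 9 genes had 1 cluster each, so the mean over clusters and the next brightest cluster gave no value. No paired analysis was possible because the genotypes share no replicate numbers. Signals just above the dim reference limit Gja1 and Gja4. Signals near, at or below it limit the kallikreins other than Klk10 and Klk8.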

Other observations

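Of 6 lymphatic endothelial markers measured, 1 rose, the hyaluronan receptor Lyve1 (1.97, limma adjusted p = 0.00971), which resident macrophages also carry (all 10 macrophage markers rose), and all 6 had positive differences, with a median of 0.79; before adjustment, 4 were higher and none lower. Of these 4, Reln had a wild-type mean of 3.99, below both the filter (4.01) and the dim reference. It was tested only because of its mutant signal. Lyve1 was the only marker of the 6 without overlap between genotypes. Array means of the 6 markers were 8.16 to 9.44 in mutant and 7.44 to 7.998 in wild-type aorta. The 8 arterial endothelial markers had a median of -0.04 with none past the threshold in limma (0 before adjustment), and array means of 7.31 to 8.52 in mutant and 7.68 to 8.51 in wild-type arrays. The difference between the lists was not tested.

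Klk1 had wild-type signals of 3.99, 5.15, 4.04 and 6.46 in WT675, WT676, WT742 and WT744, and 3.57 to 3.91 in the mutant arrays (difference -1.18, limma adjusted p = 0.294). WT676 and WT744 were the arrays above the others.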
